A study of Rattus norvegicus with 8 samples.

Results

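The 10 genes described here were the 4 Notch receptors (Notch1, Notch2, Notch3 and Notch4), the ligands Jag1 and Dll4, and the transcriptional targets Hes1, Hey1, Hey2 and Heyl. They were taken by symbol from a table of 37209 rat genes, and all 10 were present. The mRNA came from carotid arteries of male Sprague-Dawley rats, in which the intima of the left carotid had been damaged with a balloon catheter. The groups were 4 injured arteries collected 2 weeks after the operation and 4 control arteries, the right carotids left undamaged in the operated rats. The control is therefore the other artery of an injured animal rather than an artery of an unoperated one, and the labels give neither the age of the rats nor which arteries came from the same rat. Arteries rather than separated cells were sequenced. A higher or lower level of an RNA therefore cannot be told apart from more or fewer cells of the type that makes it.

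Notch signalling works by contact between neighbouring cells. A Jagged or Delta-like ligand on one cell binds a Notch receptor on the next, the receptor is cut by proteases, and its intracellular part enters the nucleus, where it joins the DNA-binding protein RBPJ and switches on genes of the HES and HEY families of transcriptional repressors. In arteries, Notch1, Notch4 and Dll4 are known mainly from endothelial cells, Notch3 and Heyl mainly from smooth muscle cells, and Jag1 from both.

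The total count lay between 11459632 and 16658089 per artery. Levels are given as CPM, counts scaled to a common library size with edgeR's TMM factors, and 3 counts, taken as a floor below which a level is uncertain, were 0.167 to 0.246 CPM (counting error only). Control artery 4 stood apart: across genes its log2 CPM correlated with the other controls at 0.839 to 0.857, against 0.981 to 0.983 among those. Its summed level of 12 sympathetic neuron markers was 11845 CPM, against 14.8 to 21.2 CPM in the other controls, 2436 CPM in injured artery 3 and 180 CPM in injured artery 1. Markers of the carotid wall were present in every artery. The 10 contractile smooth muscle markers summed to between 18878 (control artery 4) and 54388 CPM in the controls and to between 11789 and 18396 CPM after injury. The 12 endothelial markers summed to between 1033 (control artery 4) and 2632 CPM in the controls and to between 1045 and 1492 CPM after injury. The other controls were at 1508 CPM or more. Of this sum, the marker Vwf alone averaged 858 CPM in the controls and 272 CPM after injury. Because of control artery 4, the fold changes of the 10 genes are given with and without it. The protocol text of the labels speaks of prefrontal cortex, whereas the tissue labels name the carotid artery.

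The stretches just upstream of the genes were examined for TGGGAA, the core of the sequence that RBPJ binds, which reads TTCCCA on the other strand. RefSeq (GRCr8) upstream sequences were matched for 8 of the 10 genes, all but Dll4 and Hey1. The motif lay within the 250 bases before the start of 3 of these 8 genes, Notch4, Hes1 and Hey2, against 22.1% of 33469 upstream windows of the same length searched on both strands. Each of the 3 had 2 copies, against 2.71% of all windows with more than 1. Those of Notch4, the receptor that rose after injury, are shown beside those of Hes1, the classical target with a pair of copies on its own strand, and beside Notch3 and Heyl, whose levels kept an almost fixed ratio across the arteries as described with the targets. All are written 5′ to 3′ on the strand of the gene and end at the base before its start, and capitals mark the motif.
Notch4: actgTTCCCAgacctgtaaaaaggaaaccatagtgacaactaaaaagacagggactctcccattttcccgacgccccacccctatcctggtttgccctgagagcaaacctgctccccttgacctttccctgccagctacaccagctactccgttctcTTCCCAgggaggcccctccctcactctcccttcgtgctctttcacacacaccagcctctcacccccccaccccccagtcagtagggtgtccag
Hes1: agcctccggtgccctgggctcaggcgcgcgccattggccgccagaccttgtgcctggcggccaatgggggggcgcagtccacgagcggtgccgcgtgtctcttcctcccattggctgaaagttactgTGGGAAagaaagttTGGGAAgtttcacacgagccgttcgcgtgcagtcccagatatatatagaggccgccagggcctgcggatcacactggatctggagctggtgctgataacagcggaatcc
Notch3: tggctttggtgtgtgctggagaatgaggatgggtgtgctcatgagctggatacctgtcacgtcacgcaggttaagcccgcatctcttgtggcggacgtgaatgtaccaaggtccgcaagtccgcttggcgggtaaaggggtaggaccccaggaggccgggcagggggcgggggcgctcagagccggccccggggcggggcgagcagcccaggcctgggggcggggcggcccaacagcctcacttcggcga
Heyl: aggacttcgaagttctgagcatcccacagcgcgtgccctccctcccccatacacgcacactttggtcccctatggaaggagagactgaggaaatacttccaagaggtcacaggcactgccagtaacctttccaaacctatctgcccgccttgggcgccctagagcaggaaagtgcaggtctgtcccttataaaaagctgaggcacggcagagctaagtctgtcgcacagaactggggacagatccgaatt
The Notch4 stretch is chr20:4189073-4189322 on the minus strand, the Hes1 stretch chr11:84213046-84213295 on the minus strand, the Notch3 stretch chr7:11834586-11834835 on the minus strand, and the Heyl stretch chr5:140793021-140793270 on the plus strand. In Notch4 both copies were on the opposite strand, 246 and 93 bases before the start. In Hes1 both were on the strand of the gene, 123 and 109 bases before the start, with 8 bases between them. In Hey2 a copy on the opposite strand lay 175 bases and a copy on its own strand 60 bases before the start. No copy was found in the windows of Notch1, Notch2, Notch3, Jag1 or Heyl. A match of letters is a description of the sequence and does not show that RBPJ binds there.

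Of the 10 genes, Notch4 and Dll4 rose after injury compared with the undamaged contralateral artery, and no gene was called lower. A gene was called when edgeR's quasi-likelihood test gave an adjusted p (Benjamini-Hochberg over 14359 tested genes) under 0.05 and the fold change was above 2. In what follows, SE is the standard error of a log2 fold change and an edgeR adjusted p is one of this test. These are 2 called genes of 10, all of which had enough counts for the test. Over all tested genes 10.9% were called, and 8.31% were called higher. The median log2 fold change of the 10 genes was 0.45, against -0.057 over all tested genes, and 6 of the 10 values were positive. With all 8 arteries none of the 10 was called lower by edgeR or by DESeq2. None had an unadjusted p under 0.05 in that direction in this edgeR fit. The levels of 2 genes, again Notch4 and Dll4, did not overlap between the groups, against 23.7% of all tested genes. Without control artery 4, Hey1 was called as well, which made 3 genes, all higher, against 12.3% of all tested genes called higher. The median of the 10 genes was then 0.43. In that fit Notch2, Notch3, Hey2 and Heyl had log2 fold changes of -0.28, -0.40, -0.45 and -0.38, none of them called.

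**Figure D1:**
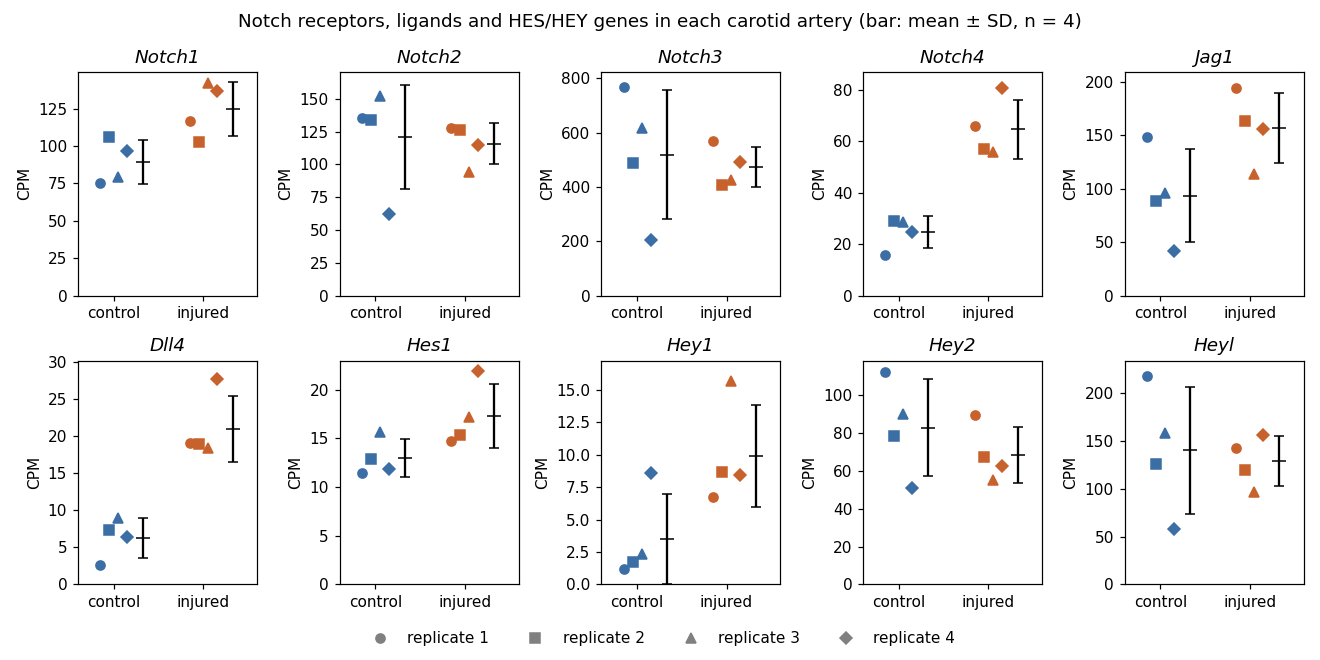
Level of each of the 10 genes in every artery, in CPM on linear axes that start at 0, with the 4 control arteries in blue and the 4 injured arteries in orange; symbols stand for replicate numbers and bars for mean ± SD. Notch4 and Dll4 have no overlap between the groups, and control artery 4 (blue diamond) is the lowest of the 8 arteries for Notch2, Notch3, Jag1, Hey2 and Heyl.

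Among the receptors, Notch4, an endothelial receptor, was measured at 15.9, 29.2, 28.8 and 24.7 CPM in control arteries 1 to 4 and at 66.0, 56.9, 55.7 and 80.6 CPM in injured arteries 1 to 4. Every injured artery was above every control. Mean levels were 24.6 ± 6.16 CPM (SD, n = 4) in controls and 64.8 ± 11.5 CPM (SD, n = 4) in injured arteries, and the log2 fold change was 1.39 (SE 0.22, edgeR adjusted p = 0.00432). The value was again 1.39 when control artery 4 was left out, with an edgeR adjusted p of 0.00425. Notch4 was called in 16 of 16 alternative fits that tested against no change, with log2 fold changes between 1.23 and 1.57.

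Notch1, the receptor that acts in endothelium as well as in many other cells, had 75.2, 106, 79.5 and 96.7 CPM in the controls and 117, 103, 142 and 137 CPM after injury. Injured artery 2 lay below control artery 2, and the other injured arteries were above all controls. The log2 fold change was 0.48 (SE 0.16), and the edgeR adjusted p of 0.0715 missed the threshold. Leaving out control artery 4 gave 0.52 with an edgeR adjusted p of 0.0441, and the fold change remained under 2, so that Notch1 was not called either way.

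Notch3, the receptor of arterial smooth muscle, had 768, 489, 616 and 206 CPM in the controls and 571, 407, 427 and 492 CPM after injury. The injured arteries lay inside the range of the controls, whose lowest value was that of control artery 4. The means were 520 ± 238 CPM (SD, n = 4) and 474 ± 73.9 CPM (SD, n = 4), and the log2 fold change was -0.13 (SE 0.36, edgeR adjusted p = 0.833). It was -0.40 (SE 0.18, edgeR adjusted p = 0.129) without control artery 4 and 0.11 without control artery 1.

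Notch2, which is also made by smooth muscle, had 135, 134, 152 and 62.5 CPM in the controls and 128, 126, 94.1 and 115 CPM after injury. Control artery 4 was again the lowest, and the injured values lay between it and the other controls. The log2 fold change was -0.061 (SE 0.26, edgeR adjusted p = 0.897), or -0.28 (SE 0.13, adjusted p = 0.127) without control artery 4. Without control artery 3 it was 0.065 and without injured artery 3 it was 0.024, so no direction can be given.

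Whether the receptors moved differently was tested on their count ratio to Notch3 within each artery, which does not depend on the scaling of the libraries. The log2 ratio of Notch4 to Notch3 was -5.59, -4.06, -4.42 and -3.06 in the controls and -3.11, -2.84, -2.94 and -2.61 after injury. Control artery 4 overlapped with injured artery 1, and the other controls lay below all injured arteries. The mean difference of 1.41 had p = 0.0571 in a two-sided exact permutation test over all 70 relabellings, or 0.171 adjusted over the 3 ratios tested. The smallest p that 4 arteries against 4 allow is 0.0286. The ratio of Notch1 to Notch3 differed by 0.48 (exact permutation p = 0.4, adjusted 0.6), and that of Notch2 to Notch3 by -0.0024 (exact permutation p = 1, adjusted 1). With control artery 4 left out, the differences were 1.82, 0.91 and 0.1 for Notch4, Notch1 and Notch2, where 3 arteries against 4 allow no p below 0.0571. A different change of the receptors was thus not shown, and at this number of arteries the adjusted test could not decide it for Notch4.

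Among the ligands, Dll4, the Delta-like ligand of arterial and sprouting endothelium, had 2.59, 7.30, 8.94 and 6.46 CPM in the controls and 19.1, 18.9, 18.4 and 27.7 CPM after injury. Every injured artery was above every control, and injured artery 4 stood above the other injured arteries. Mean levels were 6.32 ± 2.69 CPM (SD, n = 4) in controls and 21.0 ± 4.42 CPM (SD, n = 4) in injured arteries, and the log2 fold change was 1.73 (SE 0.36, edgeR adjusted p = 0.0138). It was 1.74 without control artery 4, with an edgeR adjusted p of 0.0128. Dll4 was called in the same 16 of 16 fits, with log2 fold changes between 1.47 and 1.94, and its highest adjusted p in them was 0.0489, reached without injured artery 4.

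Jag1, the Jagged ligand that smooth muscle and endothelial cells present, had 148, 88.5, 96.3 and 41.7 CPM in the controls and 194, 163, 114 and 156 CPM after injury. Control artery 1 overlapped with the injured arteries, and the other controls lay below them. The means were 93.7 ± 43.6 CPM (SD, n = 4) and 157 ± 33.2 CPM (SD, n = 4), and the log2 fold change of 0.74 (SE 0.35) was not called, with an edgeR adjusted p of 0.192. Without control artery 4 it was 0.49 (SE 0.23, edgeR adjusted p = 0.139).

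Among the targets, none of the 4 genes was called with edgeR in all 8 arteries, 1 had an unadjusted p under 0.05, and DESeq2 called none. Hey1, a repressor of endothelial cells under Notch control, had 1.22, 1.72, 2.36 and 8.62 CPM in the controls and 6.76, 8.70, 15.7 and 8.43 CPM after injury. Control artery 4 was the only control inside the range of the injured arteries. With all arteries the log2 fold change was 1.5 (SE 0.63, edgeR adjusted p = 0.143). Without control artery 4 it was 2.48 (SE 0.39, edgeR adjusted p = 0.00282), and Hey1 was then called. It was also called without both control artery 4 and injured artery 3, the arteries richest in sympathetic markers, with a value of 2.16, and in none of the other alternative fits. The call for Hey1 therefore turned on whether control artery 4 was kept, and the part of the sympathetic material in its Hey1 level was not tested.

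Hes1, a target in nearly every cell type that receives Notch signals, had 11.4, 12.9, 15.7 and 11.9 CPM in the controls and 14.7, 15.3, 17.2 and 21.9 CPM after injury. Control artery 3 overlapped with injured arteries 1 and 2. The log2 fold change of 0.41 (SE 0.18) was not called, with an edgeR adjusted p of 0.164, and it was 0.37 without control artery 4 (adjusted p = 0.184).

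Heyl, a target best known from smooth muscle, had 218, 126, 158 and 58.3 CPM in the controls and 143, 120, 96.3 and 156 CPM after injury. The injured arteries lay inside the control range. The log2 fold change was -0.12 (SE 0.36, edgeR adjusted p = 0.850). It was -0.38 without control artery 4 and 0.17 without control artery 1. Hey2, which smooth muscle and arterial endothelium both use, had 112, 78.1, 90.0 and 50.9 CPM in the controls and 89.4, 67.3, 55.1 and 62.3 CPM after injury. All injured values again fell within the control range. Its log2 fold change was -0.27 (SE 0.25, edgeR adjusted p = 0.501), or -0.45 (SE 0.19, adjusted p = 0.104) without control artery 4.

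**Figure D2:**
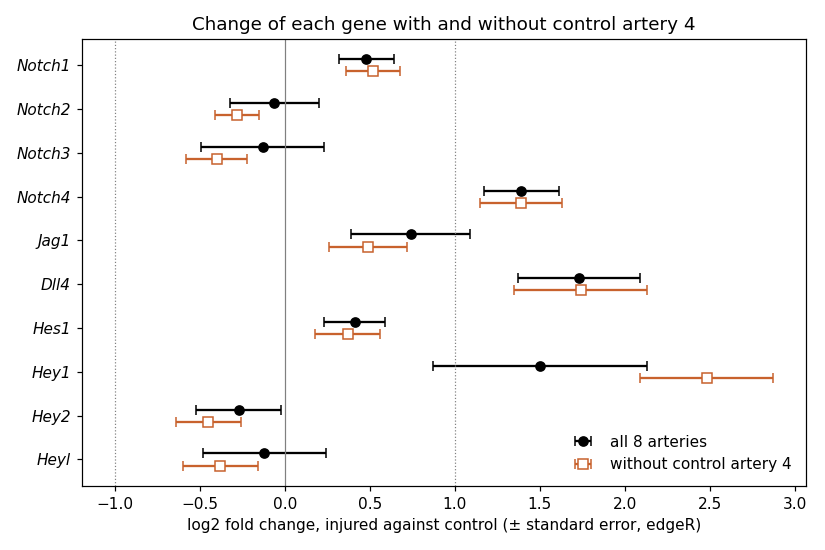
Log2 fold change of each gene, injured against control, with its standard error from edgeR, for all 8 arteries (filled) and without control artery 4 (open); dotted lines mark a fold change of 2 in either direction. Notch4 and Dll4 hardly move when control artery 4 is left out, whereas Hey1 goes from 1.5 to 2.48.

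The levels of Heyl and Notch3 went together from artery to artery. The CPM of Notch3 differed 3.73-fold between its highest and its lowest artery, while the log2 ratio of Heyl to Notch3 was -1.82, -1.96, -1.96 and -1.82 in the controls and -2.0, -1.76, -2.15 and -1.66 after injury. Its SD over all 8 arteries was 0.16, and control artery 4 lay within the others. The ratio of Hey2 to Notch3 ranged from -2.98 to -2.01, with an SD of 0.30. Its upper end was control artery 4, and the others lay between -2.98 and -2.59 (SD 0.15). The ratio of Jag1 to Notch3 was -2.68 to -2.30 in the controls and -1.91 to -1.32 after injury, without overlap, a mean difference of 0.85 (0.90 without control artery 4). This was not particular to Jag1. The ratio of Dll4 to Notch3 was -8.21 to -4.99 in the controls and -4.9 to -4.15 after injury, a mean difference of 1.84 (2.29 without control artery 4). The ratios of Hes1 and Hey1 to Notch3 overlapped between the groups. The ratios of Heyl, Hey2, Jag1, Dll4, Hes1 and Hey1 were picked after their values were seen and were not tested. The ratio of Notch2 to Notch3 had an SD of 0.27 over all 8 arteries. No gene outside the 10 was set against Notch3 in this way. Among the controls, control artery 4 also had the lowest sum of the contractile markers (18878 CPM).

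Levels of cell type markers moved along with the injury, so the genes were also set beside them. The mean log2 CPM of the 10 contractile smooth muscle markers was lower by a difference of -1.14 in the injured arteries (-1.48 without control artery 4), and 6 of the 10 markers were called lower. Relative to that mean, Notch3 lay at -1.43, -1.96, -1.34 and -1.80 in the controls and at -0.48, -0.77, -0.27 and -0.42 after injury, a difference of 1.15 on the log2 scale (1.09 without control artery 4). The groups did not overlap on this scale, and control artery 4 was within the other controls. Heyl differed by 1.15, Hey2 by 0.90 and Jag1 by 1.99 in the same direction, and by 1.12, 1.03 and 1.99 without control artery 4. The separation was not particular to Notch3, Heyl, Hey2 and Jag1. On this scale 9 of the 10 genes were higher after injury without overlap, all but Hey1. The share of all tested genes that separate on this scale was not computed, so this count has no background to be set against. Notch2 differed by 1.15, Hes1 by 1.53, Notch1 by 1.62, Notch4 by 2.54 and Dll4 by 2.89. On this scale the difference holds the change of the markers too, whose mean differed by -1.14. A gene with an unchanged level would differ by the same amount upward, close to the values of Notch2, Notch3 and Heyl. Notch3 itself was not called, while 6 contractile markers fell. Of the contractile genes, Acta2, smooth muscle actin, had a log2 fold change of -1.34 and Myh11, smooth muscle myosin, one of -1.72.

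The 12 endothelial markers did not move one way. Kdr, Emcn and Cdh5 were called higher, with log2 fold changes of 2.03, 1.43 and 1.06 (Cdh5 not without control artery 4, at 0.98). Vwf was called lower, at -1.65, and the other 8 were not called. The mean log2 CPM of the list differed by 0.37 (0.25 without control artery 4). Because it averages markers of both directions, a difference from it does not set a gene apart from the endothelial markers that rose. Relative to the mean of the list, Notch4 lay between -1.97 and -1.12 in the controls. It lay between -0.58 and -0.44 after injury, a difference of 1.02. Dll4 differed by 1.38, again without overlap, and Hey1 by 1.28 with control artery 4 inside the injured range. Notch1 differed by 0.11 on this scale, and its groups overlapped. With control artery 4 left out, these differences were 1.16 for Notch4, 1.55 for Dll4, 1.91 for Hey1 and 0.28 for Notch1. Macrophage markers also moved with the injury, since 9 of 10 were called higher and their sum was 212 to 321 CPM in the controls and 1861 to 2747 CPM after injury. Of 9 proliferation markers 8 were called higher (sums of 38.2 to 66.9 CPM in controls and 118 to 166 CPM after injury), of 6 tested T cell markers 1 (1.73 to 10.2 and 11.7 to 27.8 CPM), and of 10 skeletal muscle markers 8 (84.4 to 253 and 310 to 1176 CPM). Of 7 fibroblast markers 1 was called higher and 2 lower (10511 to 31549 and 15769 to 25763 CPM). Of 7 tested Schwann cell markers (309 to 1199 and 492 to 1683 CPM) and 8 tested sympathetic neuron markers none was called by edgeR and none had an unadjusted p under 0.05. DESeq2 called none of them either, but gave a result for 1 of the sympathetic markers only. Without control artery 4 edgeR called 1 Schwann cell marker and 2 sympathetic markers higher, and the median log2 fold change of the sympathetic markers went from -2.24 to 6.39. The part of each of these cell types in the levels of the 10 genes was not tested.

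**Figure D3:**
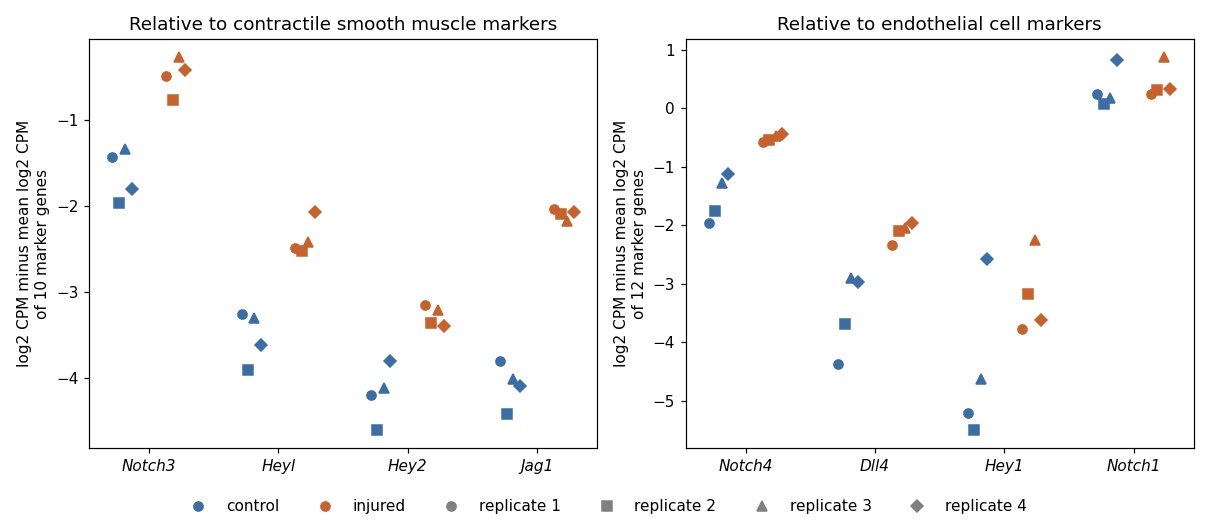
Log2 CPM of each gene in each of the 8 arteries (blue control, orange injured, symbols by replicate number) minus the mean log2 CPM of the contractile smooth muscle markers (left) or of the endothelial markers (right). On the left the groups do not overlap for Notch3, Heyl, Hey2 and Jag1, as for 9 of the 10 genes on that scale. The share of all tested genes on that scale was not computed, and a gene with an unchanged level would also lie higher there after injury, since the markers fell. On the right Notch4 and Dll4 do not overlap, whereas Notch1 overlaps and Hey1 overlaps through control artery 4.

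Around the 10 genes, 46 other genes of the pathway were examined by role. Of these, 45 were in the table (Spen was not matched), 38 had enough counts and 3 were called, all higher, against 10.9% of all tested genes. Their median log2 fold change was 0.13, 26 of the 38 values were positive, and the groups did not overlap for 10 of them, against 23.7% of all tested genes. At the adjusted p alone 6 were past the threshold, against 17.2% of all tested genes. Among the other ligands, Dlk1, a ligand-like protein that lacks the domain of true Notch ligands, was measured at 0.144, 0.328, 0.624 and 1.95 CPM in the controls and at 7.96, 6.09, 2.13 and 7.45 CPM after injury. The level in control artery 1 is 2 counts and lies under the floor of 3, so the size of its fold change is uncertain. Its log2 fold change was 2.93 (SE 0.75, edgeR adjusted p = 0.0325). This call was lost without control artery 1, 2 or 3 or injured artery 1, 2 or 4, with values of 2.58, 2.68, 2.84, 2.75, 2.92 and 2.80, and it held without control artery 4 (3.97) or injured artery 3. Jag2, the second Jagged ligand, had 7.56, 10.2, 6.93 and 88.5 CPM in the controls and 44.0, 33, 62.3 and 51.4 CPM after injury. Control artery 4 alone was above the injured arteries and the other controls lay below them. Its log2 fold change was 0.75 (edgeR adjusted p = 0.584) with that artery and 2.53 (adjusted p = 0.00045) without it, when it was called. Dner, a neuronal ligand, was at 120 CPM in control artery 4 and at 37.0 CPM in injured artery 3 and was not tested. Dll1 had a log2 fold change of 0.41 (edgeR adjusted p = 0.444).

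Of the 5 genes that add sugars to the receptors, 1 was called. Mfng, the Manic fringe enzyme, had 5.33, 8.53, 7.55 and 6.39 CPM in the controls and 16.7, 17.7, 20 and 21.5 CPM after injury, with no overlap. Its log2 fold change was 1.45 (SE 0.19, edgeR adjusted p = 0.00189). Lfng, the Lunatic fringe enzyme, passed the adjusted p (0.0373 with edgeR) with a log2 fold change of 0.90 and so stayed under a fold change of 2. It was called without control artery 2, with 1.14. Of the 10 genes of endocytosis and ubiquitination, Dtx4, an E3 ligase of the Deltex family, was called. It had 16.2, 19.2, 20.7 and 46.5 CPM in the controls and 59.0, 48.8, 69.0 and 59.9 CPM after injury. The groups did not overlap, and control artery 4 was the highest control. The log2 fold change was 1.21 (SE 0.33, edgeR adjusted p = 0.0411). It was 1.66 without control artery 4, and the call was lost when any 1 of the other arteries was left out (1.03, 1.08 and 1.11 without control arteries 1 to 3, and 1.21, 1.29, 1.12 and 1.20 without injured arteries 1 to 4).

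None of the 8 tested proteases and none of the 9 tested genes of the nuclear complex was called by edgeR or DESeq2, with 3 and 0 genes at an unadjusted p under 0.05. Aph1a, a subunit of the gamma-secretase that releases the intracellular part, passed the adjusted p (0.00513 with edgeR) with a log2 fold change of 0.67. Rbpj, the DNA-binding partner of all 4 receptors, had a log2 fold change of 0.09 (edgeR adjusted p = 0.692), with controls at 70.6 to 105 CPM and injured arteries at 89.5 to 104 CPM. It was -0.021 without control artery 4. Maml3, a coactivator of the complex, was at 0.67 (edgeR adjusted p = 0.253) and was called at 1.14 without control artery 4. Of the other HES genes and feedback targets, 3 were tested and none was called with edgeR or DESeq2, with 2 at an unadjusted p under 0.05. Nrarp, which is induced by Notch and restrains it, had a log2 fold change of 0.64 (edgeR adjusted p = 0.160). Hes7 had a value of 1.37 (edgeR adjusted p = 0.0813) on at most 17 counts and was called at 1.96 without control artery 4. In the fit that left out control artery 4, 7 of the 38 tested pathway genes were called, all higher, against 12.3% of all tested genes. Beside Jag2, Dlk1, Mfng, Dtx4, Maml3 and Hes7 the seventh was Neurl1, a neuronal E3 ligase, which had 79.6 CPM in control artery 4.

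**Figure D4:**
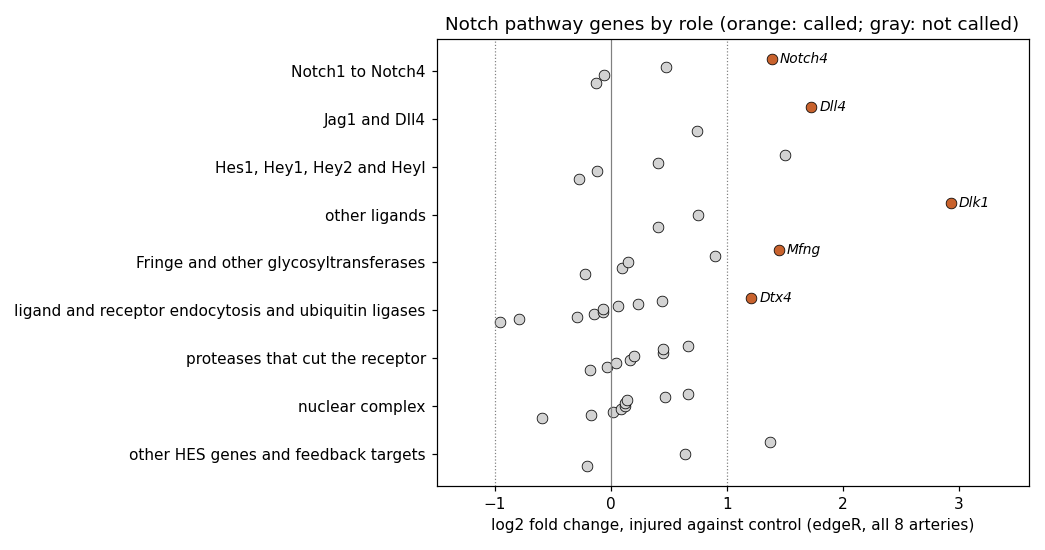
Log2 fold change (edgeR, all 8 arteries) of the 10 genes and of the 38 tested other pathway genes, 1 point per gene, grouped by role; orange points are called, gray points are not, and dotted lines mark a fold change of 2. The called genes, Notch4, Dll4, Dlk1, Mfng and Dtx4, are all on the higher side, and the proteases and the nuclear complex hold none.

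A further list held 14 genes that have been linked to Notch in vessels, all of them tested. The test called 6 of them, 3 higher and 3 lower, against 10.9% of all tested genes called. The median over the list was 0.11 on the log2 scale, and 6 of the 14 had no overlap between groups, against 23.7% of all tested genes. Among the arterial endothelial genes, the connexin Gja4 rose with a log2 fold change of 1.04 (edgeR adjusted p = 0.00576), from 18.3 to 28.4 CPM in the controls to 41.2 to 56.3 CPM after injury. It went under a fold change of 2 without control artery 3 (0.98), control artery 4 (0.95) or injured artery 4 (0.94). Flt1, a receptor for VEGF, rose with a log2 fold change of 1.12 (edgeR adjusted p = 0.0157), and this call was lost without control artery 1 (0.92) and without injured artery 4 (1.03). The connexin Gja5 went the other way, with a log2 fold change of -1.23 (edgeR adjusted p = 0.0405). Its controls had 88.6, 200, 102 and 64.8 CPM and its injured arteries 47.9, 60.8, 38.8 and 46.4 CPM. The call for Gja5 held without control artery 4 (-1.43) and was lost when any 1 of the other arteries was left out, with values of -1.34, -0.82 and -1.29 without control arteries 1 to 3 and of -1.23, -1.36, -1.14 and -1.21 without injured arteries 1 to 4.

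Of the smooth muscle genes in that list, Acta2 and Myh11, also counted among the contractile markers, fell (edgeR adjusted p = 0.0193 and 0.0222). Both calls held without control artery 4, with log2 fold changes of -1.56 and -1.99. Acta2 lost its call when any 1 of the other arteries was left out, with values of -1.22, -1.25 and -1.34 without control arteries 1 to 3 and -1.39, -1.38, -1.27 and -1.34 without injured arteries 1 to 4. Myh11 lost it without control artery 1, 2 or 3 (-1.5, -1.68 and -1.70) or injured artery 2, 3 or 4 (-1.71, -1.60 and -1.70). Of the general targets, Ccnd1, cyclin D1 of the cell cycle, rose, with 64.0 ± 8.42 CPM (SD, n = 4) in controls and 159 ± 14.2 CPM (SD, n = 4) in injured arteries. Its log2 fold change was 1.31 (SE 0.13, edgeR adjusted p = 0.000637), and it kept its call whichever artery was left out. Without control artery 4, 6 of the 14 genes were called, against 16.2% of all tested genes, now with Cxcr4, a chemokine receptor, at 3.02 and without Gja4. In all 8 arteries Cxcr4 had a log2 fold change of -0.16 (edgeR adjusted p = 0.944). Control artery 4 had 75.5 CPM of Cxcr4, whereas the other controls had 0.792 to 3.05 CPM and the injured arteries 14.6 to 23.6 CPM.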

How the data were processed

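The authors prepared mRNA libraries from 4 injured and 4 contralateral carotid arteries and deposited raw counts per gene symbol for each artery, without normalization. The submitters' processing notes name HISAT2 2.0.4. The counting tool, genome build, annotation and strand setting are not given in the sources used here, so reads of overlapping and antisense genes may be mixed. Groups came from the sample labels, and the arteries are separate samples by label only, so p-values measure the spread between them.

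Counts were normalized with TMM factors, filtered with filterByExpr (14359 genes left) and fitted with edgeR 4.0.16 in R 4.3.3 (quasi-likelihood test, Benjamini-Hochberg adjustment), with calls at an adjusted p under 0.05 and a fold change above 2. The log2 CPM used in marker-relative values has 0.5 added to the CPM. Receptor ratios were compared with an exact permutation test. Alternatives were other scaling factors, DESeq2 1.42.0, other filters, a replicate block, testing each gene for more than a fold change of 2, and leaving out each artery. The scripts were tested on simulated data in which 200 genes had a fold change of 4. There edgeR recovered 149 of them and called 5 unchanged genes. With a replicate block it recovered 100 and called 6 unchanged genes. DESeq2 recovered 171 and called 41 unchanged genes. The genes and lists were chosen with earlier results of these data known. Named beyond the 10 genes were all called list genes, the largest change of each role, and Rbpj, Jag2, Dll1, Lfng and Nrarp. Dner, Neurl1 and Cxcr4 were named after their values were seen, and so were the endothelial markers Kdr, Emcn, Cdh5 and Vwf. Upstream sequences came from RefSeq (GRCr8). Because transcript lengths were not used, levels are not compared between genes.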

Additional observations from a re-analysis of the deposited data

Results flagged for a closer look

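In each group of 4 arteries the gap between the most extreme artery and its nearest neighbour was divided by the range of the group and set against Dixon's critical value for 4 values. This was done in 74 groups, those of 34 genes and of the 3 receptor ratios. Of these, 12 were above it, where chance gives about 3.7. In 7 of them the extreme artery was control artery 4 and in 2 it was injured artery 3, and some of these genes were named because of control artery 4. In control artery 4 the quotient was 0.997 for Neurl1 (79.6 CPM, next control 1.31 CPM), 0.996 for Dner (120 and 0.492 CPM), 0.97 for Cxcr4 (75.5 and 3.05 CPM), 0.96 for Jag2 (88.5 and 10.2 CPM), 0.889 for Hes7 (0.764 and 0.277 CPM), 0.853 for Dtx4 (46.5 and 20.7 CPM) and 0.847 for Hey1 (8.62 and 2.36 CPM). In injured artery 3 it was 0.93 for Neurl1 (33.9 and 6.05 CPM) and 0.916 for Dner (37.0 and 3.29 CPM). In injured artery 4 it was 0.922 for Dll4 (27.7 and 19.1 CPM) and 0.884 for Emcn (44.4 and 31.6 CPM), and in control artery 1 it was 0.838 for Kdr (5.47 and 16.1 CPM). The sympathetic markers summed to 11845 CPM in control artery 4 and to 2436 CPM in injured artery 3, and their part in these values was not tested.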

How the results depend on the processing

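The calls for Notch4 and Dll4 held in all 16 alternative fits that tested against no change. Over these fits, 150 of 160 values of the 10 genes kept their direction and their side of the threshold, 2 passed the threshold (Hey1) and 8 changed sign, none of them called. For the other named genes it was 215 of 270, with 46 calls lost, 8 gained and 1 sign changed (Rbpj, from -0.021 to 0.16 with 1 artery left out). Scaling by library totals alone moved the median of all tested genes by 0.17, from -0.057 to 0.12, and put Notch2 at 0.13, Notch3 at 0.065 and Heyl at 0.074. With 1 artery left out Notch2 lay between -0.28 and 0.065, Notch3 between -0.40 and 0.11, Heyl between -0.38 and 0.17, and the Notch2 to Notch3 log2 ratio between -0.16 and 0.1. The count of all genes called, 1562, became 1007 with at least 10 counts in every artery, 661 in the test against a fold change of 2, 2468 by the adjusted p alone, 2473 without control artery 4 and injured artery 3 (a choice made after seeing the data), and 1142 to 2398 with 1 artery left out. In the test against a fold change of 2 edgeR called 0 of the 10 genes (2 at an unadjusted p under 0.05), 0 of the pathway genes (2) and 0 of the vascular genes (3). Pathway genes called were 6 by the adjusted p alone, 7 without control artery 4 and injured artery 3, and 1 to 7 with 1 artery left out, and the vascular genes called then ranged from 1 to 6. A replicate block gave 1187 called genes and 2 of the 10, put Notch2 at 0.0033, and lost the calls for Dlk1, Acta2 and Myh11. The deviations of same-numbered arteries correlated at 0.363, 0.494, -0.581 and -0.447, and no label says that a number marks a rat. Sampling depth was 11459632 counts or more, and Hes7 rested on at most 17 counts in any artery.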
